A study of Rattus norvegicus with 6 samples.

Results

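Integrins and laminins were read as 26 rat genes: 9 integrin alpha subunits, 7 integrin beta subunits, 3 proteins that bind integrin beta tails and carry integrin symbols (Itgb1bp1, Itgb1bp2 and Itgb3bp), and 7 laminin chains. They were taken by symbol from the 15443 genes that array probes could be named to through RefSeq accessions, with no use of signal, and they were covered by 33 probes. Another 13 symbols of both families, such as Itgav and Lama2, had no matched probe and were not analysed here. The study put adipose-derived stem cells (ADSCs), labelled with the radioiodine tracer 124I-HIB, into infarcted rat hearts. RNA was hybridised to 6 one-colour Agilent arrays, all from Sprague Dawley rats labelled as 13 weeks old. The treated group was infarcted myocardium injected with tracer-labelled ADSCs (2 arrays, numbered 1 and 3), the PBS group was infarcted myocardium injected with saline (1 array) and the sham group was sham-operated myocardium without infarction (1 array). These 4 samples were taken at day 21, and even for the infarcted hearts that day is given relative to a sham operation. The other arrays held cultured ADSCs at day 14, 1 with the tracer and 1 without it. The labels do not say that the treated pair came from separate hearts, so p-values measured only the spread between those arrays, which may be technical.

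Integrins are cell-surface receptors built from an alpha and a beta chain, and they tie the cytoskeleton to the extracellular matrix or to ligands on other cells. Laminins are trimers of an alpha, a beta and a gamma chain that form the sheet of the basement membrane around each cardiomyocyte, smooth muscle cell, capillary and Schwann cell. In striated muscle the alpha chain encoded by Itga7 pairs with that of Itgb1 as the main laminin receptor, whereas fibroblasts and cultured stromal cells hold to fibronectin and vitronectin through chains such as those of Itga5 and Itgb5.

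Promoter sequence was available for 18 of the 26 genes in RefSeq's rat assembly GRCr8. The 250 bases upstream of the start site are shown for 4 genes on which the results below turn: Itga8, which had the widest gap between PBS and sham myocardium, Itgb1 and Lamc1, which were higher in cultured cells, and Itgb1bp2, which was lower there. They lie at chr17:80410634-80410883 on the minus strand, chr19:73602027-73602276 on the plus strand, chr13:68051987-68052236 on the minus strand and chrX:70612271-70612520 on the plus strand. Each is written 5′ to 3′ on the gene's strand, and capitals mark the GC box GGGCGG or its reverse complement CCGCCC.
Itga8: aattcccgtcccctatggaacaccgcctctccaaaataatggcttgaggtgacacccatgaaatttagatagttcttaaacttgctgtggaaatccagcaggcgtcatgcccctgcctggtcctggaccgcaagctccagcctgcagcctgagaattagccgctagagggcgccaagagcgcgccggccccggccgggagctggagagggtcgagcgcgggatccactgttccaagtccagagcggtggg
Itgb1: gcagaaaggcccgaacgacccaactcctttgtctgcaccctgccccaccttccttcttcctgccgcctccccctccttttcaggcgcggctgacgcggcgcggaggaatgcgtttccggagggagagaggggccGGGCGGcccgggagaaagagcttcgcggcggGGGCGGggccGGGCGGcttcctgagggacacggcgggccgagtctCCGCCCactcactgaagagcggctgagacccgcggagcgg
Lamc1: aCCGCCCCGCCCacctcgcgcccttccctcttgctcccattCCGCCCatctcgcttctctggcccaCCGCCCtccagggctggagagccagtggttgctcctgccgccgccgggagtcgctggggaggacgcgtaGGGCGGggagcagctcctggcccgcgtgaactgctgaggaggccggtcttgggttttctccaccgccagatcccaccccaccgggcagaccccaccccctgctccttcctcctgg
Itgb1bp2: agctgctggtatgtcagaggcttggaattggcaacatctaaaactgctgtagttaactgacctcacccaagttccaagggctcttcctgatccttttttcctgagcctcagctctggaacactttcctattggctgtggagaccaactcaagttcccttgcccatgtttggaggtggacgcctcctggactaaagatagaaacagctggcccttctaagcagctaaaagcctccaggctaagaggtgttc

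The Itgb1 window held 4 GC boxes and the Lamc1 window 5, of which the first 2 share 1 base, while the windows of Itga8 and Itgb1bp2 held 0. Across 33469 rat promoter windows of the same length, 30.5% held at least 1 such box. CpG dinucleotides numbered 28 in the Itgb1 window, 19 in that of Lamc1, 15 in that of Itga8 and 1 in that of Itgb1bp2, against a median of 5 over all windows. The CArG box, the binding motif of serum response factor, was found on either strand in 1.5% of all windows and among the members only in that of Itgb6. The TATAAA motif was found in 12.9% of all windows and among the members only in that of Itgb7. These are matches of letters and not tested sites.

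Signal was read as a level: the log2 processed signal minus the array's 75th percentile of unflagged spots, taken from the brightest probe of each gene. Levels were compared for 1 probe between arrays and never between genes. Marker sums were likewise compared between arrays only, and the brightest probes weigh most in them. The 75th percentile lay at 2587 units in labelled cells, at 2328 units in unlabelled cells and between 762 and 1266 units on the myocardial arrays, no spot was saturated, and 68.2% to 72.3% of probes were well above background. All arrays shared 1 slide and 1 scan. Summed markers separated the myocardium from the cells in the direction of their labels. The summed relative signal of 8 cardiomyocyte genes was 2.92 to 3.05 in cultured cells, against 1837 to 2814 in myocardium, where all 8 were well above background. All 6 mesenchymal stem cell markers were well above background in both cell arrays, with a summed signal of 47.5 in labelled and 50.9 in unlabelled cells, against 5.86 to 8.37 in myocardium. Cd248 weighed most in the cell sums, at a level of 4.84 in labelled and 4.93 in unlabelled cells. On every myocardial array 5 of the 6 were also well above background. Of these 5, 4 were higher in both cell arrays than in all myocardium and 1, Eng, was lower.

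By the brightest probe of each, 16 of the 26 genes were well above background on all 6 arrays. Itga10, Itga4, Itgb1bp2, Itgb2, Itgb3 and Itgb6 passed on some arrays. Itgal and Itgam, the alpha chains of leukocyte integrins, and the laminin chains Lama1 and Lamc3 passed on none. Itgb2, the beta chain that leukocyte alpha chains share, was well above background on neither cell array and on all 4 myocardial arrays. Itgb6, an epithelial beta chain that helps activate latent TGF-beta, showed the opposite pattern, being well above background on the cell arrays only.

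Between PBS and sham myocardium, 2 integrin genes stood apart: Itga8, whose product binds fibronectin and nephronectin on mesenchymal and smooth muscle cells, and Itgb4, whose product pairs with that of Itga6 in hemidesmosomes and in Schwann cells. The level of Itga8 was -3.25 and -2.68 in treated myocardium, -1.77 in PBS myocardium and -3.68 in sham myocardium. On this brighter probe PBS was therefore the high myocardial array and sham the low one, with both treated arrays between them. The difference of PBS minus sham was 1.91 on the log2 scale, or 3.75-fold, and 1.04 after a normexp background correction. The second Itga8 probe differed by 1.52 in the same direction but was not well above background in any myocardium. On that probe both treated arrays, at -7.17 and -7.25, lay below sham at -6.85. The level of Itgb4 was 0.05 and 0.63 in treated, 1.32 in PBS and -0.15 in sham myocardium, in the array order of the brighter Itga8 probe. PBS minus sham was 1.46, or 2.76-fold. Each group had a single array, so neither difference has a replicate check.

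These 2 were the only members at least 2-fold apart between PBS and sham among the 19 well above background on both arrays, and 0 were 2-fold lower. Over all 16588 features measured on both arrays, 1.98% were at least 2-fold higher, 1.3% at least 2-fold lower and 3.27% either way. The median member difference was -0.10, against -0.05 over all features, with 8 members higher and 11 lower. Lamb3, a chain of the hemidesmosomal laminin to which the partners Itga6 and Itgb4 bind, followed with 0.77 (1.70-fold; 0.50 after normexp), at -1.57 in PBS and -2.34 in sham myocardium. Itgb3bp, a centromere protein named for binding the tail encoded by Itgb3, differed by 0.66, Itga6 by 0.34 and the collagen receptor chain Itga1 by 0.25. Itga10 was not among the 19, and its brighter probe differed by 0.18. Its second probe differed by 1.76 and was well above background in PBS but not in sham myocardium. The lowest members were Itga4, the lymphocyte and monocyte chain that binds Vcam1 and fibronectin, at -0.41, and Lamb2, a laminin beta chain of muscle and vessel basement membranes, at -0.37.

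Marker levels of other cell types stood apart on the same PBS array. The 4 mesothelial markers with a probe summed to 0.39 and 0.45 in treated, 3.41 in PBS and 0.41 in sham myocardium. Of these, Msln, Upk1b and Krt19 were well above background in PBS myocardium alone among the myocardial arrays. The remaining marker was well above background on all of them and did not share this pattern, with PBS minus sham at -0.07. The 6 Schwann cell markers summed to 0.55 and 0.98 in treated, 1.51 in PBS and 0.58 in sham myocardium, and 6 of 6 were well above background in PBS myocardium, where treated myocardium had 4 and 5 and sham myocardium 4. The 6 atrial markers summed to 166 and 143 in treated, 456 in PBS and 171 in sham myocardium, with Mybphl and Bmp10 well above background in PBS myocardium alone. Of the 3 atrial markers measured in both PBS and sham myocardium, 2 were at least 2-fold higher in PBS and 1 was lower. The 7 smooth muscle and myofibroblast markers summed to 64.3 and 60.8 in treated, 55.1 in PBS and 63.3 in sham myocardium, while their median level was -1.07 and 0.28 in treated, 0.61 in PBS and -0.25 in sham myocardium. Of the 5 measured, 3 were higher in PBS than in sham myocardium, Acta2 by 1.94, Tagln by 0.86 and Myh11 by 0.73. The other 2 were lower, Des at 5.26 in PBS and 5.56 in sham myocardium and Smtn at 3.59 and 3.78. Those 2 probes were the brightest of the 7 on the myocardial arrays and weigh most in the sum. Lmod1 was well above background in PBS myocardium alone among the myocardial arrays. The 5 measured fibroblast markers were all higher in PBS than in sham myocardium, with a median of 0.07, and all lower on both treated arrays than in PBS myocardium, with a median of -0.52. The 8 cardiomyocyte markers were all lower in PBS than in sham myocardium, with a median of -0.48. This was not particular to PBS, since all 8 were also lower on both treated arrays than in sham myocardium, with a median of -0.46. Against PBS, 1 was higher and 3 were lower on both treated arrays, with a median of -0.06. The part of these cell types in the Itga8, Itgb4 and Lamb3 differences was not tested. In such bulk tissue, fewer cells of a type and less RNA per cell cannot be told apart.

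**Figure D1:**
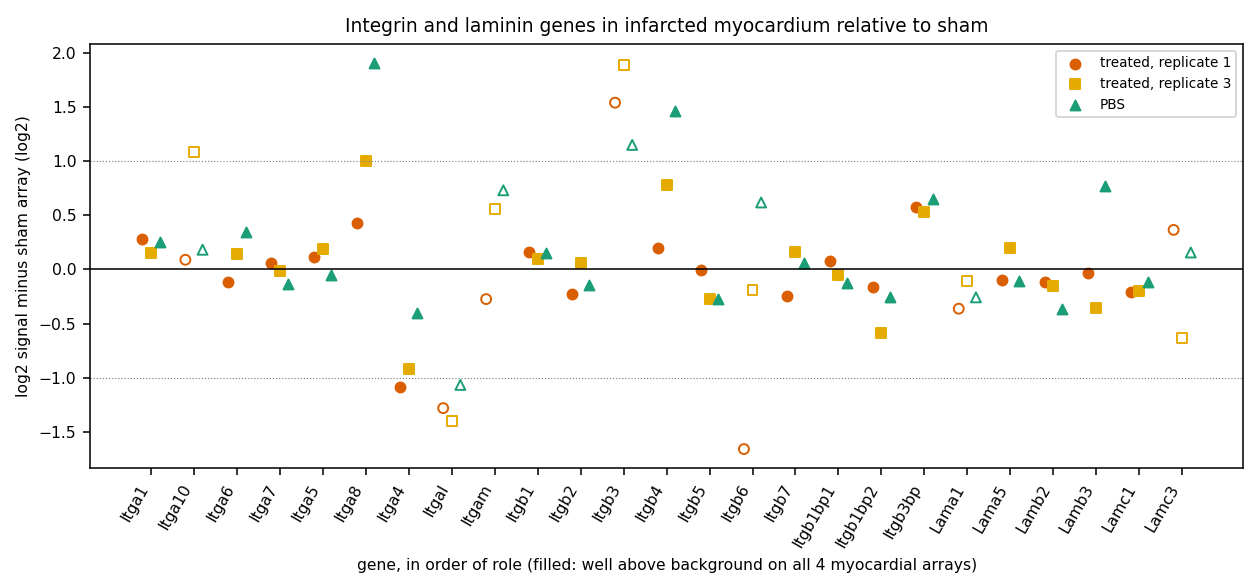
Log2 level of 25 of the 26 genes on the treated arrays and the PBS array minus the sham array, in order of role, with filled symbols for genes well above background on all 4 myocardial arrays and dotted lines at 2-fold. Among filled symbols the PBS values of Itga8 (1.91) and Itgb4 (1.46) lie highest.

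**Figure D2:**
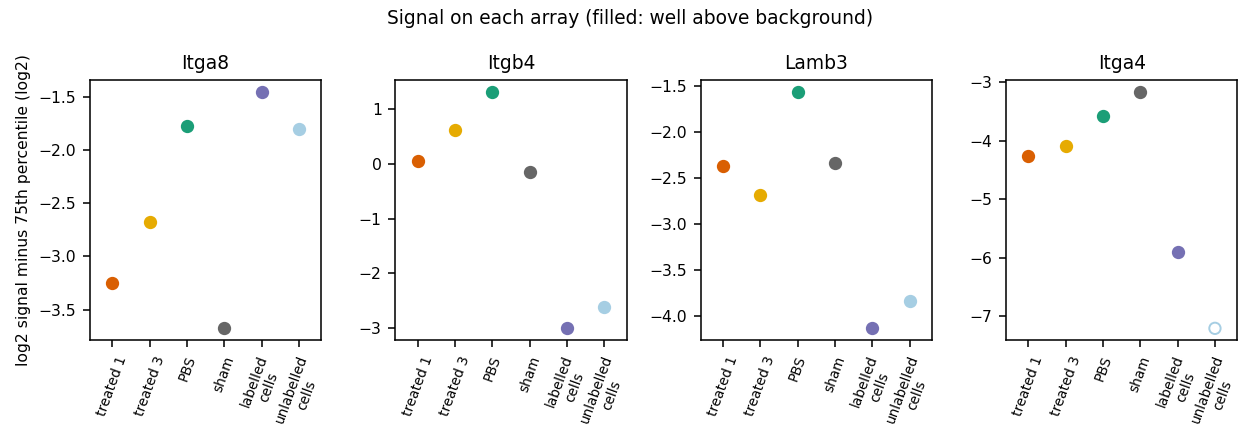
Level (log2 signal minus the array's 75th percentile) of Itga8, Itgb4, Lamb3 and Itga4 on each of the 6 arrays, 1 point an array, open where not well above background, with a separate vertical scale for each gene. PBS is the highest myocardial array for Itga8, Itgb4 and Lamb3, and sham is the highest for Itga4.

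Among the lists of integrin ligands and partners, only the matrix ligands held genes 2-fold apart between PBS and sham. Of 15 measured, 10 were higher and 5 lower, with a median of 0.25, and 3 were at least 2-fold higher. Over all features 1.98% were at least 2-fold higher and 1.3% lower, with a median of -0.05. These differences have no replicate either. Postn (periostin, deposited by activated fibroblasts) was 1.55 higher, Ccn2 1.30 and Ccn1 1.11, both matricellular proteins induced by stretch and TGF-beta, and Fn1 (fibronectin) 0.56. Of 8 ligands carried on cells, 6 were higher and 2 lower in PBS than in sham myocardium, led by Vcam1 at 0.89 and Icam1 at 0.86. Focal adhesion adaptors and kinases were higher for 15 and lower for 5 of 20, with a median of 0.23, led by Fermt3 (the kindlin of blood cells) at 0.94 and Actn1 at 0.85, and 0 passed 2-fold. Of 17 basement membrane partners, 6 were higher and 11 lower with a median of -0.07, and 0 passed 2-fold.

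In treated against PBS myocardium, Itga8, Itgb4 and Lamb3 had the lowest differences among the 19 measured members. They had also stood highest in PBS minus sham, and the same single PBS array enters here with the opposite sign, so these differences are not independent of those above. Lamb3 was at -2.37 and -2.69 in treated and -1.57 in PBS myocardium, a difference of -0.96 ± 0.22 (SD, n = 2 treated arrays). The corresponding differences were -1.19 ± 0.40 for Itga8 and -0.98 ± 0.41 for Itgb4. Both treated arrays lay below the PBS array for each of the 3, but Itga8 and Itgb4 passed 2-fold on treated array 1 alone, and Lamb3 on treated array 3 alone. For Itga8 the differences were -1.48 on treated array 1 and -0.91 on treated array 3. For Itgb4 they were -1.27 and -0.69 in the same order, and for Lamb3 -0.81 and -1.12.

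None of the 19 measured members was 2-fold apart from PBS on both treated arrays, against 1.15% of 16728 features (0.395% higher and 0.759% lower). With limma, 0 of 21 tested members and 0 of 18642 features (0%) had an adjusted p under 0.05. Unadjusted p-values under 0.05 were found for 4 members, Lamb3 (limma adjusted p 0.395), Itga8 (0.430), Itga4 (0.452) and Itgb4 (0.479), and for 9.9% of all features. The other fits of this contrast called 0 to 81 features over the whole array and 0 members each, with most calls after normexp. The remaining members were close to PBS: the median of the 19 was -0.03, against 0.00 over all features, with 6 higher and 7 lower on both treated arrays. Lamb2 lay highest at 0.24, from 2.76 and 2.72 in treated and 2.51 in PBS myocardium. All values against PBS rest on that single array, on which the summed mesothelial, Schwann and atrial markers described above also stood high.

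The ligand lists held 1 gene 2-fold lower on both treated arrays, against 0.759% of all features. Of 15 matrix ligands, 5 were higher and 10 lower on both treated arrays than in PBS myocardium, with a median of -0.37. Postn alone was 2-fold lower on both, at -1.67 (limma adjusted p 0.274). It had also stood higher in PBS than in sham, and the same PBS array enters both differences. Of 8 cell-borne ligands, 0 were higher and 4 lower on both treated arrays, with Vcam1 at -0.77. Focal adhesion genes (median -0.04) and basement membrane partners (median 0.03) had 0 members 2-fold apart, the widest of the latter being the nidogen Nid2 at 0.66. With limma, 0 genes of these 4 lists had an adjusted p under 0.05.

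Against sham myocardium the treated arrays stood apart mainly for Itga4. Its level was -4.25 and -4.09 in treated, -3.58 in PBS and -3.17 in sham myocardium, so that sham was the highest array and both treated arrays the lowest. Treated minus sham was -1.004 ± 0.11 (SD, n = 2), with limma adjusted p 0.384. The gap was 2-fold on treated array 1 and not on treated array 3. The summed signal of 6 lymphoid markers was 1.18 and 1.20 in treated, 1.02 in PBS and 1.36 in sham myocardium, and that of 8 myeloid markers 8.60 and 10.97 in treated, 9.92 in PBS and 9.18 in sham myocardium. Their part in the Itga4 difference was not tested.

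Of 19 members measured in treated and sham myocardium, 6 were higher and 7 lower on both treated arrays and 0 were 2-fold apart on both, against 0.843% of 16375 features (0.482% higher and 0.36% lower). With limma, 0 of 21 members and 0 of 18642 features passed, while 3 members and 10.1% of features had an unadjusted p under 0.05. These were Itga4, Itgb3bp at 0.56 ± 0.03 (adjusted p 0.471) and Itgb3 at 1.71 (adjusted p 0.319). Itgb3, the beta chain of the vitronectin and platelet fibrinogen receptors, was well above background on treated array 3 alone among the myocardial arrays, at -5.07, and its value rests on dim spots. The other fits called 0 to 44 features and 0 members each. Itga8 stood 0.71 ± 0.40 and Itgb4 0.49 ± 0.41 above sham (SD, n = 2), and Itga8 only 0.14 after normexp and 0.18 with the mean of its probes. Treated and PBS differences from sham share the sham array, and those values stand here side by side only.

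The treated arrays differed from each other by 2-fold for 216 of 16989 features (1.27%) and for 0 of 19 members. The largest gap between them among members was 0.58, for Itgb4.

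Tracer labelling was compared on 1 labelled and 1 unlabelled array of cultured ADSCs, with no replicate. Of 18 members measured on both, 7 were higher and 11 lower in labelled cells, and 0 were 2-fold apart, against 0.937% of 17824 features (0.421% higher and 0.516% lower). The median member difference was -0.15, against -0.04 over all features. Lamb2 was at 1.498 in labelled and 2.35 in unlabelled cells, 1.81-fold lower with the tracer. This lay outside the range of -0.53 to 0.42 that held the central part of all features, from the 5th to the 95th percentile.

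Among receptor chains, Itgb3 was 0.67 lower in labelled cells (levels -5.79 labelled and -5.12 unlabelled; 0.30 lower after normexp), and Itga5, the fibronectin receptor chain, was 0.48 higher (-1.14 labelled and -1.62 unlabelled). Itga4 was well above background in labelled cells only, at -5.90, and was at least 1.86-fold higher there than in unlabelled cells. Such bounds set the bright side against the lowest signal well above background on the dim array, or the gene's own signal there where that was higher. They apply to the processed signal only. Itga10, a collagen receptor chain best known from cartilage, was 0.50 lower in labelled cells on its brighter probe, which was well above background in unlabelled cells only. Its second probe was well above background in both and 0.41 lower in labelled cells. Of 17 matrix ligands, 6 were higher and 11 lower, with Tnc (tenascin-C) 1.07 higher. Of 20 focal adhesion genes, 14 were higher and 6 lower, with Fermt3 1.02 lower at -6.47 in labelled and -5.45 in unlabelled cells.

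**Figure D3:**
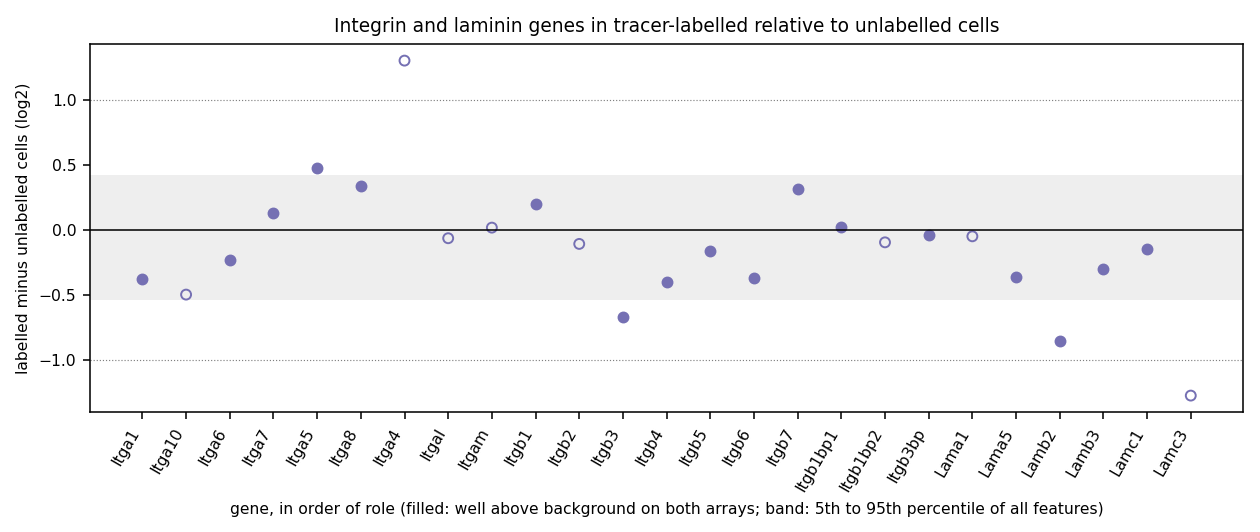
Log2 level of 25 of the 26 genes in labelled minus unlabelled cells, 1 array each, with filled symbols for genes well above background on both arrays, a grey band from the 5th to the 95th percentile of all features and dotted lines at 2-fold. Filled symbols leave the band for Lamb2, Itgb3 and Itga5, and none passes 2-fold.

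Cultured ADSCs and myocardium could differ only in level for the 16 of the 26 genes well above background on all 6 arrays. Itgb1bp2 and Itgb2 were well above background on every myocardial array and on neither cell array, and Itgb6 on the cell arrays only. With limma over all 6 arrays, 17 of 22 tested members had an adjusted p under 0.05, 8 higher and 9 lower in cells. Most of the array separated these sources of RNA, with 68.2% of 20317 features past the same threshold, 33.4% higher and 34.9% lower, so the members' share is near that of all features. The spread in this fit came from the treated pair alone, with 1 residual degree of freedom, and the cell arrays were assumed to vary like it. By the stricter rule that every cell array lie at least 2-fold beyond every myocardial array, 2 of 16 measured members were higher and 5 lower, against 14.1% and 15.7% of 15221 features (29.8% either way). The median member difference was 0.25, against 0.04 over all features.

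Itga7, Itga6 and Itgb4, chains of laminin receptors, were lower in cells. Itga7, the muscle laminin receptor chain, was at -4.29 in labelled and -4.43 in unlabelled cells, against 0.71 and 0.63 in treated, 0.51 in PBS and 0.65 in sham myocardium. All 4 myocardial arrays lay together and far above both cell arrays, a difference of -4.97 ± 0.12 (SE; 31.4-fold; limma adjusted p 0.000487). Itga6 was at -4.58 in labelled and -4.35 in unlabelled cells, against -1.86 to -1.40 in myocardium (-2.84 ± 0.15, SE; adjusted p 0.00129). Its partner Itgb4 was at -3.01 in labelled and -2.61 in unlabelled cells, against -0.15 to 1.32 in myocardium (-3.31 ± 0.23, SE; adjusted p 0.00211). Neither gene's groups overlapped.

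Itgb1bp2 encodes melusin, a chaperone of striated muscle that binds the tail of the integrin chain encoded by Itgb1. It was not well above background in cells, at -6.85 labelled and -6.76 unlabelled, against 0.48 and 0.06 in treated, 0.39 in PBS and 0.65 in sham myocardium. By processed signal it was at least 151-fold lower in cells (limma adjusted p 0.000524), a log2 difference of -7.24. That bound was not met after normexp, where the log2 difference was -4.99. Cardiomyocyte markers moved with it and with Itga7, and Myh6 and Myh7 were not well above background in cells. The part of cardiomyocyte number in these differences was not tested.

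Itgb2, Itgb7 and Itga4, chains known from leukocytes, were lower in cells. Itgb2 was not well above background in cells, against levels of -3.68 to -3.40 in myocardium. By processed signal it was at least 9.75-fold lower in cells (adjusted p 0.000615), a bound not met after normexp (log2 difference -2.28). Itgb7, which pairs with Itga4 on gut-homing lymphocytes, was at -5.18 in labelled and -5.49 in unlabelled cells, against -3.82 to -3.42 in myocardium (-1.76 ± 0.18, SE; adjusted p 0.00465). Itga4 was at -5.90 in labelled and -7.21 in unlabelled cells, where it was not well above background, against -4.25 to -3.17 in myocardium (-2.92; adjusted p 0.00104; -1.88 after normexp). The summed signal of 8 myeloid markers was 1.78 in labelled and 1.64 in unlabelled cells, against 8.60 to 10.97 in myocardium. By limma 7 of the 8 were lower in cells and 1, Cd14, was higher. Cd14 was at 0.48 in labelled and 0.25 in unlabelled cells, against -2.27 to -1.57 in myocardium. The part of these cell types was not tested.

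Of 7 tested integrin beta chains, 3 were higher in cells (Itgb5, Itgb1 and Itgb6) and 3 lower. Itgb5, which with the chain of Itgav forms a vitronectin receptor, was at 1.66 in labelled and 1.82 in unlabelled cells, against -0.15 and -0.41 in treated, -0.42 in PBS and -0.14 in sham myocardium. The groups did not overlap, and the difference was 2.02 ± 0.15 (SE; 4.05-fold; limma adjusted p 0.00233). A second Itgb5 probe differed by only 0.49, so the size rests on the probe. Itgb1, the beta chain that most matrix receptors share, was at 3.18 in labelled and 2.98 in unlabelled cells, against 1.78 to 1.94 in myocardium (1.20 ± 0.12, SE; 2.30-fold; adjusted p 0.00433), and by 0.93 on its second probe.

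Itga5 was 0.59 higher in cells (adjusted p 0.0225) and Itga8 was 1.18 higher (adjusted p 0.0192), or by 0.34 and 0.70 after normexp. For Itga8 the groups overlapped, since the PBS array at -1.77 lay between labelled cells at -1.46 and unlabelled cells at -1.80. Itgb6 was at -4.00 in labelled and -3.63 in unlabelled cells and not well above background in myocardium. By processed signal it was at least 3.26-fold higher in cells (adjusted p 0.0355). With normexp that bound was not met, and its difference was 0.23 (adjusted p 0.202). The centromere protein Itgb3bp rose by 1.04 (adjusted p 0.00582), and Itgb1bp1, which restrains integrin activation at the tail of Itgb1, by 0.54 (adjusted p 0.0308).

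Laminin chains did not move as a group between cells and myocardium. Lamc1, the gamma chain of most laminins, was at 4.06 in labelled and 4.21 in unlabelled cells, against 3.03 to 3.24 in myocardium, without overlap (1.00 ± 0.12, SE; adjusted p 0.00622), and its second probe differed by 1.12. Lamb3 was lower in cells, at -4.14 labelled and -3.84 unlabelled, against -2.69 to -1.57 in myocardium (-1.84 ± 0.16, SE; 3.59-fold; adjusted p 0.00321). Lamb2 was lower too, at 1.498 labelled and 2.35 unlabelled, against 2.51 to 2.87 in myocardium (-0.78 ± 0.12, SE; adjusted p 0.0110).

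Lama5, the alpha chain of vessel and epithelial basement membranes, differed by -0.33 (adjusted p 0.139) and did not pass. The receptor chains Itga1 (0.14, adjusted p 0.366), Itga10 (-0.32, adjusted p 0.474) and Itgb3 (0.56, adjusted p 0.0556) did not pass either. Itga1 was at 3.35 in labelled and 3.72 in unlabelled cells, around the 3.23 to 3.51 of myocardium.

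**Figure D4:**
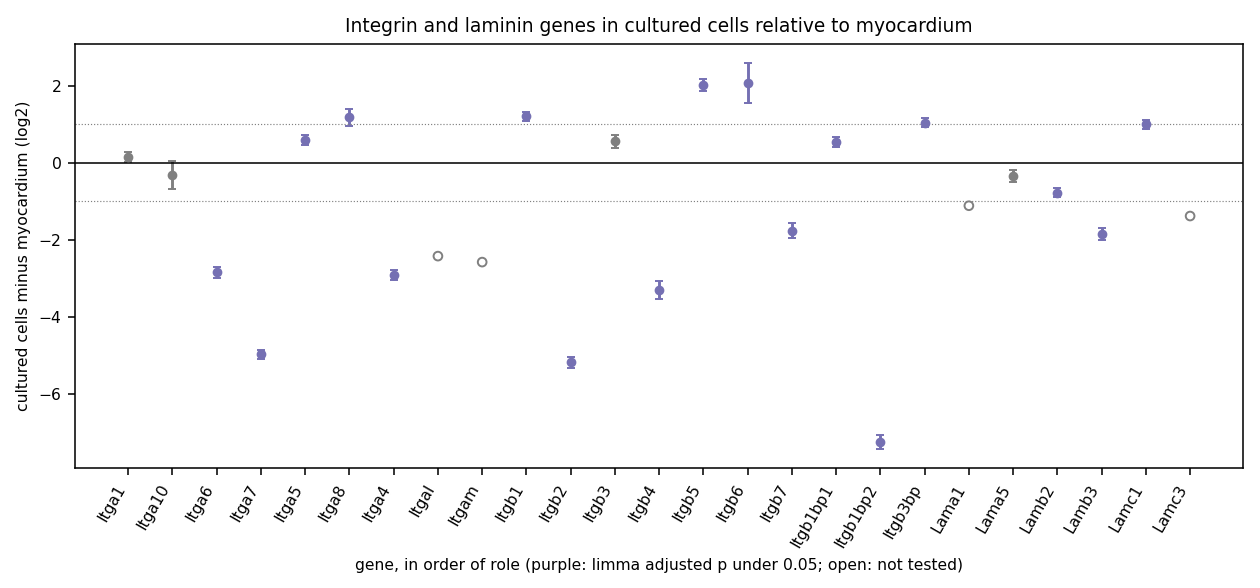
Log2 difference of the mean of both cell arrays minus the mean of the treated, PBS and sham groups for 25 of the 26 genes, with the limma standard error, purple where the adjusted p was under 0.05 and open where not tested, and dotted lines at 2-fold. Itgb1bp2, Itgb2 and Itga7 lie lowest, and the plotted values of Itgb1bp2 and Itgb2 use cell signals not well above background.

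Promoter windows can be set beside these directions only as a description. All 8 members higher in cells had a promoter window, with 6 to 33 CpG dinucleotides (median 17), and 3 of them held a GC box, against 30.5% of all windows. Of the 9 lower in cells, 4 had a window (Itga4, Itgb1bp2, Itgb7 and Lamb3), with 1 to 6 CpG dinucleotides (median 3) and 0 with a GC box. Itga1 and Lama5, which did not pass between cells and myocardium, had 10 and 20 CpG dinucleotides. No test was made of this, and windows of Itga6, Itga7, Itgb2, Itgb4 and Lamb2 were not used here.

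The ligands and partners of these receptors are given beside all features, of which 33.4% were higher and 34.9% lower in cells by limma. With limma, 15 of 18 tested matrix ligands were higher in cells and 2 lower, and of 14 measured on all arrays 10 were at least 2-fold higher (median difference 1.83). Among those 14, Fn1 led at 5.54, followed by Postn at 4.59, Col1a1 at 4.31 and Ccn2 at 2.73. Tnc and Vtn (vitronectin), outside those 14, lay further apart. Tnc was at 2.18 in labelled and 1.12 in unlabelled cells and not well above background in myocardium, at -8.30 to -7.89. Vtn was not well above background in cells, at -8.63 labelled and -8.18 unlabelled, against 1.52 to 1.79 in myocardium. Of 8 tested ligands on cells, 6 were higher and 1 lower, led by Icam1 at 3.98 and the tetraspanin Cd82 at 3.19. Of 22 tested focal adhesion genes, 12 were higher and 5 lower, Parva by 3.42 and Lims2 by -3.86. Of 17 tested basement membrane partners, 5 were higher and 10 lower. Among them, Sgcd and Sspn, members of the muscle dystrophin complex, differed by -3.46 and -3.41, and Nid2 by 2.28.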

How the data were processed

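Total RNA was labelled with Cy3 and hybridised to 1-colour Agilent arrays, and the authors deposited each array's scanner table with spot intensity, which the submitters' processing notes credit to Agilent Feature Extraction (version 11.0.1.1). The deposited processed signal intensity was used, and per the file headers the program subtracted background from it. The authors also deposited a table of log2 values, which followed log2 processed signal on every array and had equal medians within the 4 myocardial arrays (8.85) and, at another value, within the 2 cell arrays (9.67). The sources used here do not state how it was made, and it served only as an alternative within each of these sets.

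Control and outlier-flagged spots were left out, log2 signal was centred on each array's 75th percentile, spots were averaged per probe, and the brightest of several probes stood for a gene. A probe counted as well above background only where every unflagged spot was. Of 30367 probes, 18355 were named through RefSeq accessions without versions and 12012 were kept unnamed, giving 27455 features. The array annotation names another rat build, so GRCr8 gave names and promoter windows only.

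Tests used limma 3.58.1 in R 4.3.3 with Benjamini-Hochberg adjustment over all tested features, with 4 myocardial arrays or all 6 arrays in a fit. PBS against sham and labelled against unlabelled had 1 array a group and no test. A size rule asked for 2-fold on features well above background on all arrays compared. Every member could be named, and values on each array were given for those past 2-fold and for the widest of each role, with a few genes from each list. Values of 1 member and 1 marker are not reported here. The members, lists and markers were chosen with earlier results of these data known. On simulated data, limma recovered 2% of features changed by 1 log2 unit and 92% of those changed by 2 between treated and PBS (18642 features), and 8% and 90% between cells and myocardium (20317 features). Only 50 features were changed at each size, and 15 unchanged features passed between treated and PBS and 12 between cells and myocardium. Every simulated array took its spread from the treated pair, which may be technical, so this recovery does not cover variation between hearts. In the real fit of cells against myocardium 68.2% of features passed, so the simulated recovery does not describe that contrast. Alternatives were normexp with an offset of 50 on the median signal, quantile normalization, the deposited log2 table, the mean of all probes, no background filter, a 1.5-fold rule, limma with trend and robust settings or with other sets of arrays, unlabelled cells against sham alone, and leaving out each treated array.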

Additional observations from a re-analysis of the deposited data

How the results depend on the processing

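Counts of members past the size rule were small and moved with it. Without the background filter there were 4 between PBS and sham (Itga8, Itgal, Itgb3 and Itgb4), 2 between treated and sham (Itgal and Itgb3), 2 between labelled and unlabelled cells (Itga4 and Lamc3) and 13 between cells and myocardium. At 1.5-fold there were 3 between treated and PBS (Itga8, Itgb4 and Lamb3), 1 between treated and sham (Itga4), 4 between PBS and sham and 3 between labelled and unlabelled cells. With the mean of all probes, 1 member (Itga8) was 2-fold lower in treated than in PBS myocardium. Leaving out a treated array gave 1 (Lamb3, without replicate 1) to 2 (Itga8 and Itgb4, without replicate 3) between treated and PBS, and 0 to 1 (Itga4, without replicate 3) between treated and sham. A remaining single array leaves no residual degree of freedom, so these are values with no test.

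Between cells and myocardium the size rule gave 7 members as reported, 5 with quantile normalization (Itgb7 and Lamb3 fell short) and 6 with the mean of probes (Itgb1 fell short), while limma called 17 to 21 members. Normexp moved the median of all features by -0.17 and quantile normalization by 0.11 there. Of 496 recomputed values of single members, 468 stayed within the replicate spread or on the same side of the threshold, 26 moved further, Itgb6 lost its call with normexp and 1 other member gained one. No call changed direction (0 of these values), while 25 differences that no test or size rule had called took the other sign. The cause was not tested. No paired analysis was possible because the PBS and sham groups have 1 array each. Depth on an array is signal over background, which leaves Itgal, Itgam, Lama1 and Lamc3 unmeasured.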
